A study of Mus musculus with 24 samples.

Results

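WT Kupffer cells, the resident macrophages of the liver, were set against the other wild-type (WT) macrophages of the same series. The comparison took the 3 WT Kupffer libraries of the 24 libraries in all, chosen by the cell type, tissue and genotype in their labels, and the 9 WT libraries of alveolar macrophages from lung, microglia from brain and splenic macrophages (3 of each). The other 12 libraries carry the genotype Z165KO and were not used, so no value given here comes from them. All 12 libraries used are labelled wildtype, and no transgene, Cre or treatment is given for them. The macrophages were sorted from digested mouse tissue. Neither the sort gate nor the age of the mice is given, and nothing says that replicates came from different mice: the spread behind each p-value is therefore that between libraries and may be technical.

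Kupffer cells line the liver sinusoids, where they take up particles, bacteria, complement-coated material and ageing blood cells from portal blood. They sit beside the sinusoidal endothelial cells, the stellate cells and the hepatocytes, which supply signals of the Notch, TGF-beta and BMP families and ligands of the nuclear receptor LXR. The transcription factors LXR-alpha (Nr1h3), Id3, Spic and c-Maf are known from mouse work to take part in the Kupffer cell programme. Clec4f, a galactose-binding lectin, Vsig4, a receptor for complement C3 fragments, and Timd4, a phosphatidylserine receptor for dying cells, are its usual markers.

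Kupffer libraries held 57733667 to 62984970 counts each, alveolar libraries 54136122 to 60645840, microglial libraries 50704045 to 53649966 and splenic libraries 54754295 to 56266657. Genes with at least 10 counts numbered 18930 to 19708 in Kupffer libraries, 17436 to 18514 in alveolar, 17220 to 20646 in microglial and 17513 to 17880 in splenic libraries. Microglia replicate 2 gave the highest of these numbers. The first 3 principal components held 35.19%, 23.42% and 17.66% of the variance. Levels are in CPM, a gene's count scaled by the total count of its library, as mean ± SD of 3 libraries, and log2 fold changes are given with their standard error (SE). Adjusted p-values are from edgeR's quasi-likelihood test with Benjamini-Hochberg adjustment over all genes tested, and a gene was called at an adjusted p under 0.05.

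The 3 markers fitted the label of the Kupffer libraries. Clec4f (ENSMUSG00000014542, chromosome 6, 83644542 to 83656187, minus strand, mm10) stood at 8844, 10253 and 8962 CPM in the Kupffer libraries. It stood at 0, 0 and 0.0185 CPM in alveolar macrophages, at 0.0373, 0.650 and 0.158 CPM in microglia and at 0, 0.183 and 0 CPM in splenic macrophages. The 3 Kupffer libraries held 1703192 Clec4f counts, against 1, 44 and 10 counts in the 3 alveolar, 3 microglial and 3 splenic libraries. Every Kupffer library was thus far above every other library, and the difference was called against each type (largest adjusted p = 6.82e-05). Per length, Clec4f ranked 6 among all genes in Kupffer cells, at 11864 ± 1020 TPM (SD, n = 3), where Apoe was first (29281 TPM).

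Vsig4 (ENSMUSG00000044206, chromosome X, 96247203 to 96293438, minus strand) stood at 1366, 1649 and 1286 CPM in Kupffer cells. It stood at 0.478, 0.0330 and 1.18 CPM in alveolar macrophages, at 0, 0.0382 and 0 CPM in microglia and at 4.47, 3.12 and 2.15 CPM in splenic macrophages. Kupffer cells were 441-fold above splenic macrophages, the next type (log2 8.59 ± 0.74, adjusted p = 2.76e-05), and no library of another type came near them. Timd4 (ENSMUSG00000055546, chromosome 11, 46810800 to 46844332, plus strand) behaved differently. It stood at 607, 695 and 578 CPM in Kupffer cells, against 2.99, 0.824 and 1.90 CPM in alveolar macrophages, 0.0373, 0.516 and 0.532 CPM in microglia and 228, 204 and 248 CPM in splenic macrophages. Its Kupffer libraries also lay above all others, but the step over splenic macrophages was 2.77-fold and missed the threshold (log2 1.26 ± 0.45, adjusted p = 0.0818).

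The promoters of the 3 markers are shown because they are the sequences next to the genes that define the comparison. Each is the 250 bases before the gene start in RefSeq (GRCm38.p6), read 5′ to 3′ on the gene's strand, and capitals mark the nuclear receptor motif AGGTCA and the MAF motif TGCTGAC on either strand.
Clec4f, chr6:83656117-83656366, minus strand: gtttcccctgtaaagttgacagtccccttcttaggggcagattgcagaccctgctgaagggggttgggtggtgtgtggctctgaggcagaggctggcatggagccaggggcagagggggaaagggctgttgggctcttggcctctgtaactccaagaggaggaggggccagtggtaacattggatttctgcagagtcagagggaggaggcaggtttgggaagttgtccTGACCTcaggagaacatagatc
Timd4, chr11:46810549-46810798, plus strand: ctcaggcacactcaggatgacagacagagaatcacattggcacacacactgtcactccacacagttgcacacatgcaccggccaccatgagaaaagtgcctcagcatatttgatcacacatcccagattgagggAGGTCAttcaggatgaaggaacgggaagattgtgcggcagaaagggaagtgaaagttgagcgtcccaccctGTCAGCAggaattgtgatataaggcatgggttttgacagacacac
Vsig4, chrX:96293439-96293688, minus strand: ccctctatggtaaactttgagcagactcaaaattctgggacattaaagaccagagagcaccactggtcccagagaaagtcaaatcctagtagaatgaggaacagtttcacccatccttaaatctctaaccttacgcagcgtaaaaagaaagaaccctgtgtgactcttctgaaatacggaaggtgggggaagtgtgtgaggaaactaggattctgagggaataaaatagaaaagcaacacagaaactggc
Positions are those of the first printed base of a match, with -1 the last base before the gene start. Clec4f held 1 AGGTCA match on the opposite strand, at -22. RefSeq starts Clec4f inside the GENCODE gene given above, so this match lies within the GENCODE coordinates. Timd4 held 1 AGGTCA match at -116 and 1 TGCTGAC match on the opposite strand at -45. The Vsig4 window held neither motif. The letters are short and common: windows of 250 bases before to 50 after the start held AGGTCA in 16.7% of the 24 windows found for the Kupffer identity list and in 16.3% of all 32851 windows. For TGCTGAC the shares were 8.33% (2 windows) and 4.67%. The PU.1 motif GAGGAAGT was in 0 of the 24 windows and in 3.20% of all, and the GATA motif AGATAA and the E-box CACCTG were in 4 of the 24 each (16.7%), against 11.2% and 20.2% of all windows. Both strands were searched, and where TGCTGAC runs on into CT it shares bases with AGGTCA.

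Of 21679 genes tested, 4946 (22.8%) differed between Kupffer cells and the mean of the other 3 types on the log scale. Of these, 3303 (15.2% of those tested) were higher and 1643 (7.58%) lower in Kupffer cells. The split leaned on the scaling: with library totals alone 3958 were higher and 1065 lower, and the median log2 fold change of all genes moved to 0.22, against 0.06 with TMM scaling. At a log2 difference of at least 1, 2748 genes were higher and 729 lower. All 3 Kupffer libraries lay above all 9 others for 1882 genes (8.68%) and below all 9 for 242 (1.12%).

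A mean over 3 types can be carried by 1 of them, and it often was. Of the 3303 higher genes, 916 had a higher mean in another type than in Kupffer cells, 449 of them in splenic macrophages, and 295 were called lower than at least 1 single type. Of the 3303, 674 were called higher than each of the 3 types when each pair was read at its own threshold. Against single types, Kupffer cells were higher for 3387 genes (15.6%) and lower for 2688 (12.4%) relative to alveolar macrophages. The numbers were 3961 higher (18.3%) and 3064 lower (14.1%) against microglia, and 1926 higher (8.88%) and 1632 lower (7.53%) against splenic macrophages. The stricter test of a difference from every type, which takes the largest of the 3 p-values per gene before adjustment, called 277 genes higher (1.28%) and 22 lower (0.101%). These counts depend on single libraries: without Kupffer replicate 1, 2 or 3 the higher count was 151, 160 or 138, and without splenic replicate 2 it was 178. The lower count was 7, 13 or 9 without Kupffer replicate 1, 2 or 3. The 1643 genes lower than the mean became 1087 without Kupffer replicate 2 and 1009 without replicate 3.

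**Figure D1:**
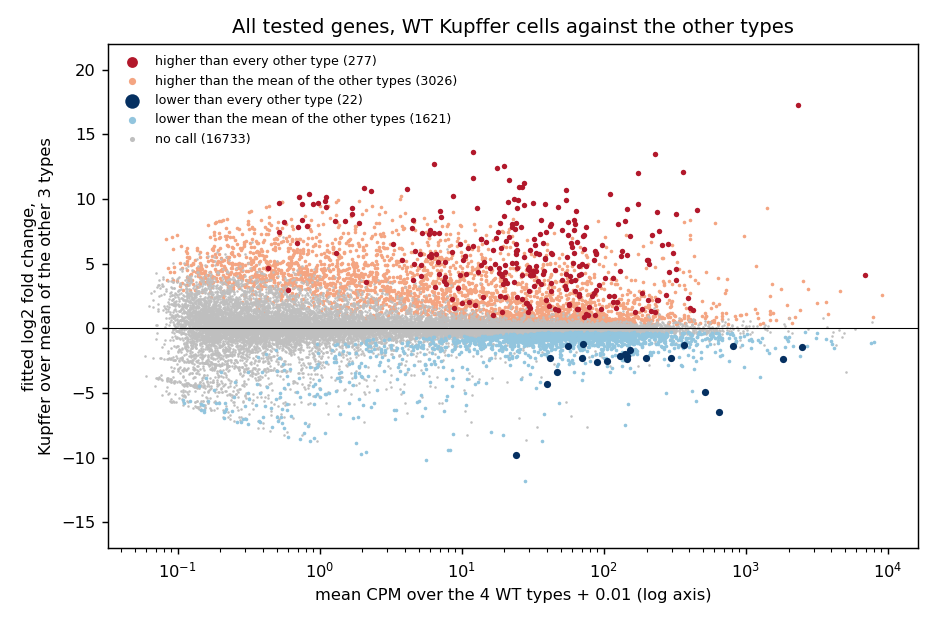
Fitted log2 fold change of Kupffer cells over the mean of the other 3 WT types (vertical axis) against the mean CPM over the 4 types plus 0.01 (log axis), 1 point for each of the 21679 genes. Dark red points are the 277 genes above every type and dark blue points the 22 below every type; more of the called genes with large fold changes lie on the higher side.

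The 277 genes made up 80491 to 85169 CPM in the Kupffer libraries, against 4610 to 4916 in alveolar, 3811 to 4180 in microglial and 11928 to 13526 CPM in splenic libraries. They stood 16.7-fold (median) over the next type, 164 of them by at least 10-fold and 53 by at least 100-fold. The next type was splenic macrophages for 115, alveolar macrophages for 111 and microglia for 51. In each of the other types 62 of the 277 averaged under 1 CPM. The 277 genes included 8 of the 26 Kupffer identity genes and 19 of the 33 genes in the lists of sinusoidal and general endothelial markers, and 204 were in none of the 46 lists used.

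The 15 genes furthest above the next type were Clec4f, Inhbb, Btnl9, Sectm1a, Oit3, Tmem132e, Clec4g, Fabp7, Gata4, Vsig4, Flt4, Wnt2, Gpr182, Fam124a and F8. Beside the Kupffer markers Clec4f and Vsig4, 6 of them are in the lists of endothelial markers, namely Oit3, Clec4g, Gata4, Flt4, Wnt2 and Gpr182. Clec4g, a lectin best known from liver sinusoidal endothelial cells, stood at 993, 796 and 977 CPM in Kupffer libraries, against 0.239, 0.247 and 0 CPM in alveolar, 0, 3.25 and 0 CPM in microglial and 0, 0 and 0 CPM in splenic libraries. Oit3 stood at 732, 590 and 773 CPM in Kupffer libraries, and no library of another type passed 0.897 CPM. In both genes the 3 Kupffer libraries were close to each other, the second was the lowest, and none overlapped with another type.

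The same held for the other endothelial genes among the 15. Gata4, a transcription factor of the sinusoidal endothelium, stood at 154 ± 9.73 CPM in Kupffer cells, against 0.0573, 0.294 and 0.312 CPM in alveolar macrophages, microglia and splenic macrophages (largest adjusted p = 1.87e-04). Flt4, the receptor for VEGF-C, stood at 580 ± 93.5 CPM against 1.39, 0.585 and 0.760 CPM in the same 3 types. Wnt2, a Wnt ligand, stood at 109 ± 25.4 CPM in Kupffer cells, against 0.258, 0.108 and 0 CPM. Gpr182, an atypical chemokine receptor, stood at 693 ± 125 CPM against 0.556, 1.71 and 0.518 CPM.

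The other 7 are in no endothelial list, which does not tell which cells made their RNA. In Inhbb, Btnl9, Tmem132e, Fam124a and F8 the second Kupffer library was the lowest, as in Oit3 and Clec4g. In Fabp7 the second was the highest, and in Sectm1a the first was the lowest. The part of endothelial cells in these genes was not tested. Inhbb, the beta B subunit of activins and inhibins, stood at 54.5, 33.6 and 56.8 CPM in Kupffer cells, against a single count in the 9 other libraries. Sectm1a, a secreted and membrane protein of leukocytes, stood at 16.2, 27.8 and 32.8 CPM, also against 1 count elsewhere. F8, coagulation factor VIII, stood at 285, 220 and 253 CPM in Kupffer cells, and the highest of the other libraries was splenic replicate 3 at 1.96 CPM. Fabp7, a brain-type fatty acid carrier that is also in the Kupffer identity list, stood at 92.8 ± 17.3 CPM in Kupffer cells, against 0.0948, 0.0259 and 0.173 CPM in alveolar macrophages, microglia and splenic macrophages. Btnl9, a butyrophilin-like protein, Tmem132e, a membrane protein, and Fam124a averaged 70.9, 85.8 and 101 CPM in Kupffer cells and under 0.3 CPM in each other type.

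**Figure D2:**
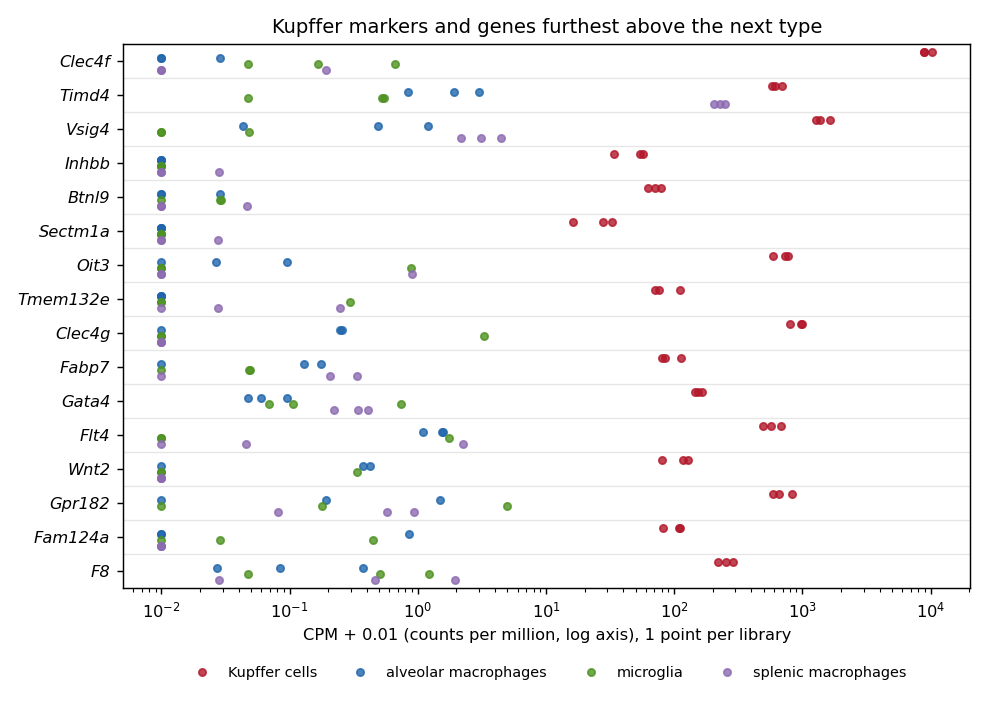
CPM plus 0.01 on a log axis for the 3 Kupffer markers and the genes furthest above the next type, 1 point per library (3 per WT type). The Kupffer points lie right of all others in every row; the gap is smallest for Timd4, whose splenic points lie at 204 to 248 CPM.

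Markers of other liver cells moved with these genes, and their part in the results was not tested. All 18 tested genes of the liver sinusoidal endothelial list were higher in Kupffer cells (100%), 10 of them above every type, with a median log2 of 8.22 when types without counts are set at their floor. The list summed to 10446, 8460 and 10720 CPM in the Kupffer libraries, against 206 to 266 in alveolar, 437 to 578 in microglial and 654 to 787 CPM in splenic libraries. No member was at 0 in Kupffer cells, and the lowest was Rspo3 at 3.93 CPM. The list shares Kdr, Ptprb and Cldn5 with the general endothelial list, and macrophages are known to express its members Maf and Fcgr2b too. Its largest members there were Stab2 (1934 CPM), Kdr, the VEGF-A receptor (1275 ± 115 CPM, against 11.3, 11.9 and 0.114 CPM in alveolar macrophages, microglia and splenic macrophages) and Ptprb, an endothelial phosphatase (930 ± 169 CPM against 7.38, 2.78 and 0.190 CPM). In bulk RNA, fewer cells of a type and less RNA per cell cannot be told apart.

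The general endothelial list gave a similar picture, with 17 of 18 genes higher and 11 above every type. It summed to 4284 to 5484 CPM in Kupffer libraries, against 250 to 266 in alveolar, 367 to 394 in microglial and 417 to 482 CPM in splenic libraries. The exception, Vwf (von Willebrand factor), stood at 34.3, 4.97 and 7.77 CPM in Kupffer libraries, against 63.7 to 83.2 CPM in alveolar, 2.03 to 5.72 in microglial and 63.9 to 101 CPM in splenic libraries (adjusted p = 0.179), and it was called lower than the mean of the types without Kupffer replicate 1. Of 26 hepatocyte genes, 25 were higher and 5 above every type, at lower levels. Against single types 21 were higher and 2 lower than in alveolar macrophages, and 20 higher and 0 lower than in microglia. Against splenic macrophages 18 were higher and 1 lower. Fabp1 and Hp averaged more in alveolar macrophages than in Kupffer cells, and Ttr more in microglia, though each was called higher than the mean of the types. Alb (albumin) stood at 80.2, 84.4 and 165 CPM in Kupffer libraries, against at most 4.43 CPM in any other library, and Serpina3k, a serum protease inhibitor, stood at 47.8 ± 8.95 CPM against 0, 0 and 0.499 CPM in alveolar macrophages, microglia and splenic macrophages. The hepatocyte sum itself, 2342 to 3268 CPM in Kupffer libraries, against 3931 to 4819 in alveolar, 2110 to 2179 in microglial and 6116 to 6483 CPM in splenic libraries, was mostly Trf (transferrin), which macrophages also express and which was lower in Kupffer cells.

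The T and NK cell list (18 of 19 genes higher) summed to 373 to 638 CPM in Kupffer libraries, against 344 to 412 in alveolar, 0.966 to 3.80 in microglial and 177 to 315 CPM in splenic libraries. The B cell list (14 of 15 higher) summed to 1187 to 1825 CPM in Kupffer libraries and to 2044 to 2768 CPM in splenic libraries. Monocyte genes (14 of 18 higher) summed to 2039 to 3050 CPM against 20269 to 25552 CPM in alveolar libraries, and erythroid genes (0 of 14 higher) to 71.8 to 256 CPM against 6005 to 22921 CPM in splenic libraries. Dendritic cell genes (15 of 18 higher) summed to 1157 to 1521 CPM in Kupffer libraries. They summed to 152 to 193 in alveolar, 2257 to 2903 in microglial and 487 to 752 CPM in splenic libraries. Against microglia 12 of the 18 were higher and 2 lower, and Siglech was the member called lower than the mean of the types. Border macrophage genes (14 of 15 higher) summed to 2584 to 2877 CPM in Kupffer libraries, against 2589 to 3050 CPM in splenic libraries.

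Stellate cell genes (5 of 15 higher) summed to 265, 434 and 470 CPM in Kupffer libraries, against 99.7 to 165 in alveolar, 24.2 to 54.3 in microglial and 13.6 to 29.8 CPM in splenic libraries. Platelet genes (4 of 10 higher) summed to 312 to 415 CPM against at most 129 CPM elsewhere. The stellate and platelet sums were both highest in Kupffer cells without overlap, but each leaned on few genes. Among stellate genes Ecm1 stood at 409 ± 109 TPM in Kupffer cells, against 8.47, 3.97 and 2.49 TPM for Dcn, Rgs5 and Lrat. Most of the platelet sum was Clec1b, a lectin named below. Itga2b and Ppbp stood at 4.73 and 2.37 TPM in Kupffer cells. Against splenic macrophages 2 platelet genes were higher and 1 lower. Cholangiocyte genes (7 of 9 higher) split the Kupffer replicates, at 166, 15.9 and 162 CPM, and alveolar libraries held more, at 1703 to 2212 CPM, against at most 6.26 CPM in microglial and splenic libraries. Against alveolar macrophages 0 of the 9 were higher and 3 lower, and with limma and voom 1 of the 9 was higher than the mean of the types. Neutrophil, lung epithelial and other brain cell genes were higher for 1 of 13, 4 of 14 and 3 of 15, at 124 to 160, 9.22 to 52.7 and 275 to 294 CPM in Kupffer libraries.

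**Figure D3:**
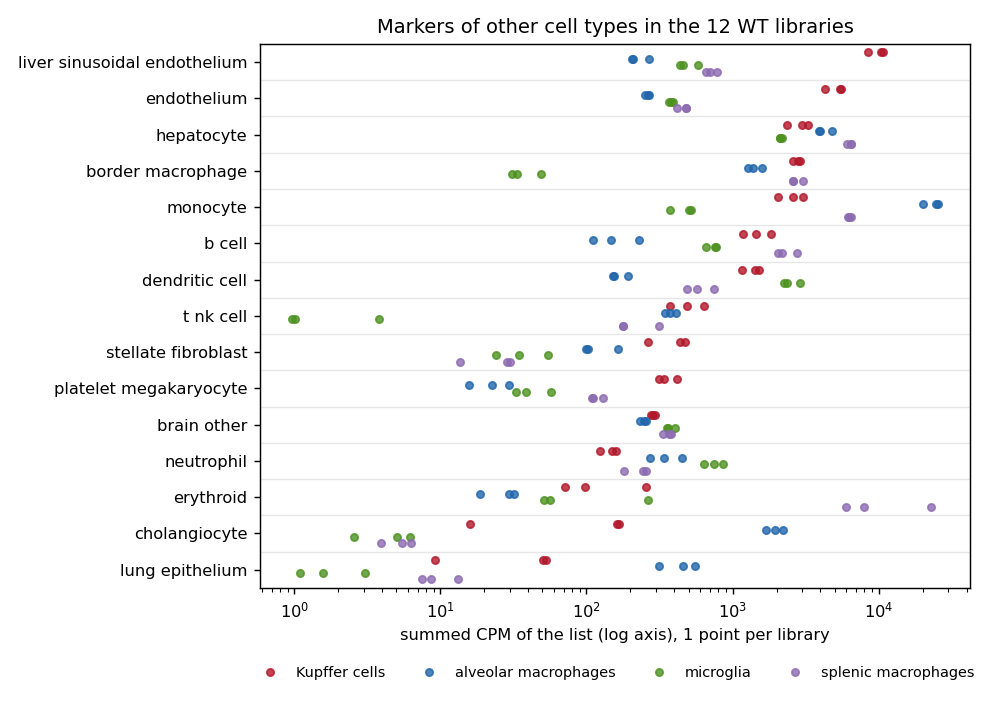
Summed CPM (log axis) of marker lists of other cell types, 1 point per WT library. Kupffer libraries have the highest sums of the 4 types for the sinusoidal endothelial, endothelial, stellate and platelet lists. Splenic libraries have the highest erythroid and B cell sums and alveolar libraries the highest monocyte sum. A sum can rest on few genes, as the stellate (Ecm1) and platelet (Clec1b) sums do.

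Of the 26 genes in the Kupffer identity list, 25 (96.2%) were higher than the mean of the other types, against 15.2% of all genes, with a median log2 of 5.68. Counts of this kind are over list members that passed the filter on low counts, which a gene high in Kupffer cells alone passes through those libraries; all 26 did. The list was drawn up with earlier results of these libraries known, so its direction is a description. The exception was Adrb1, the beta-1 adrenergic receptor (97.0 ± 9.73 CPM in Kupffer cells, against 53.2, 134 and 174 CPM in alveolar macrophages, microglia and splenic macrophages). Against alveolar macrophages 24 were higher, and against microglia 25. Against splenic macrophages 11 of the 26 were higher and 4 (Slc40a1, Tmem26, Hmox1 and Adrb1) were lower. Among all genes 8.88% were higher and 7.53% lower in that comparison.

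The 8 identity genes above every type were Clec4f, Vsig4, Cd207, Folr2, Cdh5, Fabp7, Id3 and Il18bp. Cd207, the lectin langerin, stood at 121, 152 and 100 CPM in Kupffer cells, against 0.247 to 2.27 CPM in alveolar, 0 CPM in microglial and 0.804 to 1.09 CPM in splenic libraries. Folr2, a folate receptor, stood at 78.9 ± 11 CPM in Kupffer cells, against 0.294, 0.0510 and 0.317 CPM in alveolar macrophages, microglia and splenic macrophages. Il18bp, the secreted inhibitor of interleukin 18, stood at 657 ± 65.0 CPM, against 5.10, 4.06 and 150 CPM (log2 1.93 ± 0.25 over splenic macrophages, adjusted p = 4.22e-04). Cdh5 (VE-cadherin), at 167 ± 18.6 CPM in Kupffer cells and at most 3.21 CPM elsewhere, is in the endothelial list as well.

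A second set of identity genes was shared with the spleen. C6, a terminal complement component, stood at 760 ± 100 CPM in Kupffer cells, against 0.322 and 0.0510 CPM in alveolar macrophages and microglia but 707 ± 42.2 CPM in splenic macrophages. Fcna (ficolin A), Cd163, the haemoglobin scavenger receptor, and Cd38, an NAD-consuming enzyme, likewise stood at 1922, 684 and 555 CPM in Kupffer cells, against 1959, 611 and 481 CPM in splenic macrophages, and none of the 3 was called between these types. Cd5l, a secreted scavenger protein also known as AIM, stood at 4206, 5186 and 4962 CPM in Kupffer cells and at 834, 910 and 923 CPM in splenic macrophages. These libraries do not overlap, yet Cd5l was not called between the types (log2 2.22 ± 1.09, adjusted p = 0.21), in a fit that takes 1 spread per gene from all 4 types, including those with 0 to 2.75 CPM.

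Among C-type lectins, which bind sugars on microbes and cells, 24 of 37 tested were higher (64.9%), 3 lower and 7 above every type. Besides Clec4f, Clec4g and Cd207, the 7 were Cd209f, Cd209g, Clec14a and Selp. Clec4g is also in the sinusoidal endothelial list, and the part of other liver cells was not tested for Clec4g, Clec14a or Selp. The level of Selp varied widely between the Kupffer libraries. Cd209f, a DC-SIGN relative, stood at 98.2 ± 27.5 CPM in Kupffer cells, against 1.43, 0 and 0.224 CPM in alveolar macrophages, microglia and splenic macrophages, and Cd209g stood at 27.5 ± 8.99 CPM against 0.350, 0.127 and 0 CPM. Clec1b (CLEC-2) stood at 285 ± 42.6 CPM, above splenic macrophages at 97.6 ± 12.3 CPM (adjusted p = 0.0216). Mrc1, the mannose receptor, was higher than the mean of the types only through microglia: it stood at 1266 ± 81.3 CPM in Kupffer cells, against 1305, 22.6 and 2016 CPM in alveolar macrophages, microglia and splenic macrophages. The 3 lower lectins, Clec4a2, Clec5a and Clec16a, were not called with library totals as the only scaling, nor without Kupffer replicate 2 or 3.

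Scavenger receptors, which take up modified lipoproteins and microbial surfaces, were higher for 15 of 23 (65.2%) and lower for 3. Msr1, the class A receptor, stood at 441, 543 and 481 CPM in Kupffer cells, against 16.2 to 22.3 CPM in alveolar, 0.552 to 2.14 in microglial and 17.8 to 28.3 CPM in splenic libraries (20.4-fold over splenic macrophages, largest adjusted p = 5.80e-04). Scarf1 stood at 144 ± 5.37 CPM in Kupffer cells, against 3.22, 1.85 and 5.26 CPM in alveolar macrophages, microglia and splenic macrophages. Marco stood at 1294, 946 and 767 CPM in Kupffer cells and at 412, 467 and 850 CPM in alveolar macrophages, which overlap. Stab2 stood at 1934 ± 213 CPM in Kupffer cells and 493 ± 61.8 CPM in splenic macrophages, and was not called between them (adjusted p = 0.378). Stab1 stood at 1033 ± 106 CPM in Kupffer cells and 757 ± 152 CPM in microglia. Both stabilins clear hyaluronan and other ligands and are also made by sinusoidal endothelium. The part of endothelial cells was not tested for them or for Scarf1.

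Complement genes were higher for 26 of 35 (74.3%) and lower for 2, the integrin chains Itgax and Itgb2. The 5 above every type were Vsig4, C4b, Masp1, Cd59a and Clu. C4b, a classical and lectin pathway component with a near-identical copy in the mouse genome, stood at 887, 1258 and 819 CPM in Kupffer cells, against 14.1 to 19.8 CPM in alveolar, 0.0746 to 4.60 in microglial and 14.8 to 27.9 CPM in splenic libraries (42.7-fold over splenic macrophages). Masp1, a protease of the lectin pathway, stood at 211 ± 48.8 CPM against 0.0330, 5.91 and 0.0298 CPM in alveolar macrophages, microglia and splenic macrophages. Clu (clusterin) stood at 145, 22.1 and 142 CPM in Kupffer cells, so the second Kupffer library was well below the others, as it was for the cholangiocyte list.

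The C1q chains were high in 3 of the 4 types. C1qb stood at 4626 ± 330 CPM in Kupffer cells, against 42.6, 6353 and 3585 CPM in alveolar macrophages, microglia and splenic macrophages, and its call rested on alveolar macrophages (adjusted p = 0.094 against microglia and 0.769 against splenic macrophages). Cfp (properdin), which promotes the alternative pathway, stood at 2009 ± 129 CPM in Kupffer cells and 2533 ± 48.9 CPM in splenic macrophages. C3 itself stood at 132 ± 19.2 CPM in Kupffer cells, below alveolar macrophages at 339 ± 46.4 CPM (adjusted p = 0.0295).

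Of 64 transcription factors, 22 (34.4%) were higher and 13 lower, and 2, Id3 and Irf7, were above every type. Id3, an inhibitor of basic helix-loop-helix factors, stood at 1078, 933 and 1444 CPM in Kupffer cells, against 14.9, 91.9 and 83.2 CPM in alveolar macrophages, 8.87, 3.61 and 6.59 CPM in microglia and 23.5, 11.8 and 7.54 CPM in splenic macrophages. It was 18.2-fold above alveolar macrophages, and the libraries did not overlap (largest adjusted p = 0.0139). Nr1h3 stood at 475 ± 55.6 CPM in Kupffer cells, above alveolar macrophages (60.4 CPM) and microglia (1.60 CPM) but with no call against splenic macrophages (521 ± 61.7 CPM, adjusted p = 0.196). Spic stood at 147, 133 and 131 CPM in Kupffer cells, at most 0.333 CPM in alveolar macrophages and microglia, and 1639, 1446 and 1343 CPM in splenic macrophages, which were above Kupffer cells (log2 -3.64 ± 0.29, adjusted p = 5.32e-05).

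Of the factors named in the series title, Zeb2 varied little between the types and Maf varied more. Maf (c-Maf) stood at 87.3 ± 10.5 CPM in Kupffer cells, against 1.20, 98.1 and 55.7 CPM in alveolar macrophages, microglia and splenic macrophages. It was called higher than the mean through the alveolar level. Zeb2 stood at 277, 321 and 235 CPM in Kupffer cells, against 297, 282 and 190 CPM in alveolar, 329, 171 and 276 in microglial and 330, 296 and 305 CPM in splenic libraries, which overlap (log2 -0.15 ± 0.21, adjusted p = 0.687). Among the lower factors, Runx1 stood at 48.2 ± 14 CPM against 391, 158 and 83.8 CPM, and Egr2 at 35.6 ± 9.57 CPM against 1086, 45.4 and 256 CPM in the same order.

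BMP and TGF-beta genes were higher for 15 of 39 (38.5%) and lower for 8. Smad6, an inhibitory Smad that BMP signals induce, stood at 105 ± 4.0 CPM in Kupffer cells, against 6.01, 5.82 and 4.19 CPM in alveolar macrophages, microglia and splenic macrophages (largest adjusted p = 1.14e-04). Id4 and Lrrc32, which presents latent TGF-beta, were above every type as well, at 20.6 ± 1.65 and 229 ± 41.0 CPM in Kupffer cells and under 2.6 CPM on average elsewhere. Eng (endoglin), a co-receptor that the endothelial list also holds, stood at 695 ± 102 CPM against 4.62, 92.4 and 8.65 CPM. Of the ligands, Bmp2 stood at 495 ± 93.8 CPM in Kupffer cells, 74.5 ± 13.8 CPM in splenic macrophages and on average under 1 CPM in the other types, and Bmp6 at 73.5 ± 9.60 CPM against 4.74, 0.274 and 0.0363 CPM. Among the receptors, Tgfbr1 was lower in Kupffer cells than in alveolar macrophages and microglia, at 137 ± 20.1 CPM against 540 and 1788 CPM. Eng and Bmp2 are also in the endothelial lists whose sums are given above, and the part of such cells was not tested for them, for Bmp6 or for the other genes here.

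In the Notch list 7 of 35 genes were higher and 2 lower, which is near the shares among all genes. Notch1 was above every type, at 163, 152 and 190 CPM in Kupffer cells, against 49.2 to 68.6 CPM in alveolar, 30.1 to 71.9 in microglial and 29.4 to 34.8 CPM in splenic libraries (2.80-fold over alveolar macrophages, largest adjusted p = 0.0357). The ligand Dll4 stood at 56.9 ± 12.8 CPM in Kupffer libraries and at most 2.80 CPM in any other library, and the part of endothelial cells in it was not tested. Hes1, a target of Notch, stood at 112 ± 46.7 CPM in Kupffer cells and 101 ± 13.2 CPM in splenic macrophages.

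LXR responds to oxidised cholesterol and drives lipid export. Of 24 LXR-related genes, 10 (41.7%) were higher and 3 lower. Apoe, the apolipoprotein that carries cholesterol away, stood at 18152, 21985 and 19814 CPM in Kupffer cells, against 336, 197 and 359 CPM in alveolar, 407, 532 and 539 in microglial and 7274, 6187 and 6917 CPM in splenic libraries. Kupffer cells were 2.94-fold above splenic macrophages, with no overlap (log2 1.35 ± 0.19, adjusted p = 7.18e-04). Apoc1, its neighbour on chromosome 7, stood at 359 ± 45.4 CPM against 5.55, 0.343 and 27.4 CPM in alveolar macrophages, microglia and splenic macrophages. Pltp, the phospholipid transfer protein, stood at 908 ± 126 CPM against 268, 8.85 and 101 CPM, and Smpdl3a, a phosphodiesterase, at 671 ± 79.8 CPM against 260, 23.9 and 149 CPM. The list did not move as one: Abcg1, a cholesterol exporter, was lower in Kupffer cells than in alveolar macrophages (109 ± 19.4 against 898 ± 121 CPM), as was Lpl, lipoprotein lipase (720 ± 123 against 2639 ± 34.9 CPM).

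Interferon-stimulated genes, which cells switch on after interferon receptors signal or through IRF7, moved together. Of 40 tested, 39 (97.5%) were higher than the mean of the other types and 13 were above every type, with a median log2 of 2.58. All 40 were higher than in alveolar macrophages, 37 than in microglia and 18 than in splenic macrophages, and 0 were called lower in any of the 3 comparisons. The list summed to 6558, 6418 and 7208 CPM in Kupffer libraries, against 722, 784 and 733 CPM in alveolar, 666, 681 and 711 in microglial and 3006, 2337 and 3428 CPM in splenic libraries. The sums of the types do not overlap, and the splenic sum lay between Kupffer cells and the others.

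Irf7, the factor that amplifies interferon production, stood at 891, 926 and 1079 CPM in Kupffer cells, against 12 to 21.7 CPM in alveolar, 6.80 to 11.9 in microglial and 231 to 386 CPM in splenic libraries (log2 1.46 ± 0.27 over splenic macrophages, adjusted p = 0.0038). Ifitm3, which blocks virus entry, stood at 822, 858 and 1032 CPM in Kupffer cells, against at most 32.9 CPM in alveolar and microglial libraries and 183 to 210 CPM in splenic libraries. Oasl1, which limits Irf7 translation in mice, stood at 164, 120 and 203 CPM in Kupffer cells, 23.4-fold above splenic macrophages. These genes showed no overlap between Kupffer and other libraries. Other members did not differ from the spleen: Isg15, a ubiquitin-like protein, stood at 45.1, 44.0 and 104 CPM in Kupffer cells and at 78.5, 49.6 and 87.0 CPM in splenic macrophages, and Rsad2 (viperin) at 140 ± 37.2 and 173 ± 67.1 CPM. Gbp5, a guanylate-binding protein, was the member with no call (37.3 ± 6.37 CPM in Kupffer cells, adjusted p = 0.111).

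Promoters of 3 of these genes are shown because they hold the motif through which interferon-activated factors are known to act. They are the 3 with the highest mean CPM over the 4 types among those of the 13 whose 250 bases before the start hold the interferon-stimulated response element (the matches of Ifitm3 lie after its start), searched as GAAA, any 2 bases and GAAA again, on both strands, and printed in capitals (RefSeq, GRCm38.p6).
Bst2, chr8:71537473-71537722, minus strand: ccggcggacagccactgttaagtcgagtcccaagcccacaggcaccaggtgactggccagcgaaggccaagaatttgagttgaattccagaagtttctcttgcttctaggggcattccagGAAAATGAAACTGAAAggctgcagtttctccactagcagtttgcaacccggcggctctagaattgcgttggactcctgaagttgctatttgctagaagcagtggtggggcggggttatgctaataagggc
Gbp7, chr3:142530086-142530335, plus strand: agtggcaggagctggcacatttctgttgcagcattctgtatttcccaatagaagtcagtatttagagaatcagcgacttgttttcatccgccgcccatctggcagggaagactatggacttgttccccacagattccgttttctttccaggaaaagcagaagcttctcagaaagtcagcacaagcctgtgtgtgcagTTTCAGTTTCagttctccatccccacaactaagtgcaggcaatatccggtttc
Oas1a, chr5:120907526-120907775, minus strand: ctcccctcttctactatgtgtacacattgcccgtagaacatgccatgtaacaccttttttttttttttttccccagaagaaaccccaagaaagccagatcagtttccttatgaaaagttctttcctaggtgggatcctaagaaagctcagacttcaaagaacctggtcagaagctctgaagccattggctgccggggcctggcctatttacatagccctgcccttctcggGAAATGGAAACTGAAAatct
Bst2 and Oas1a each held 2 overlapping matches, at -130 and -124 in Bst2 and at -20 and -14 in Oas1a, and Gbp7 held 1 on the opposite strand at -53. Bst2 (tetherin) stood at 294, 252 and 317 CPM in Kupffer cells, against 30.5 to 38.7 CPM in alveolar, 45.7 to 94.2 in microglial and 88.5 to 127 CPM in splenic libraries. Gbp7 stood at 144, 144 and 157 CPM in Kupffer cells, 2.13-fold above splenic macrophages, and Oas1a, a sensor of double-stranded RNA, at 169, 165 and 172 CPM, 2.57-fold above them. Windows of 250 bases before to 50 after the start were found for 31 of the 40 genes, and 21 of these (67.7%) held a match, as 62.2% of their 37 windows did, against 3.44% of all windows. No Kupffer identity window held one. Irf7, Oasl2, Ifit2 and Oasl1 held no match in these windows. A match is a description of the letters and not of binding.

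**Figure D4:**
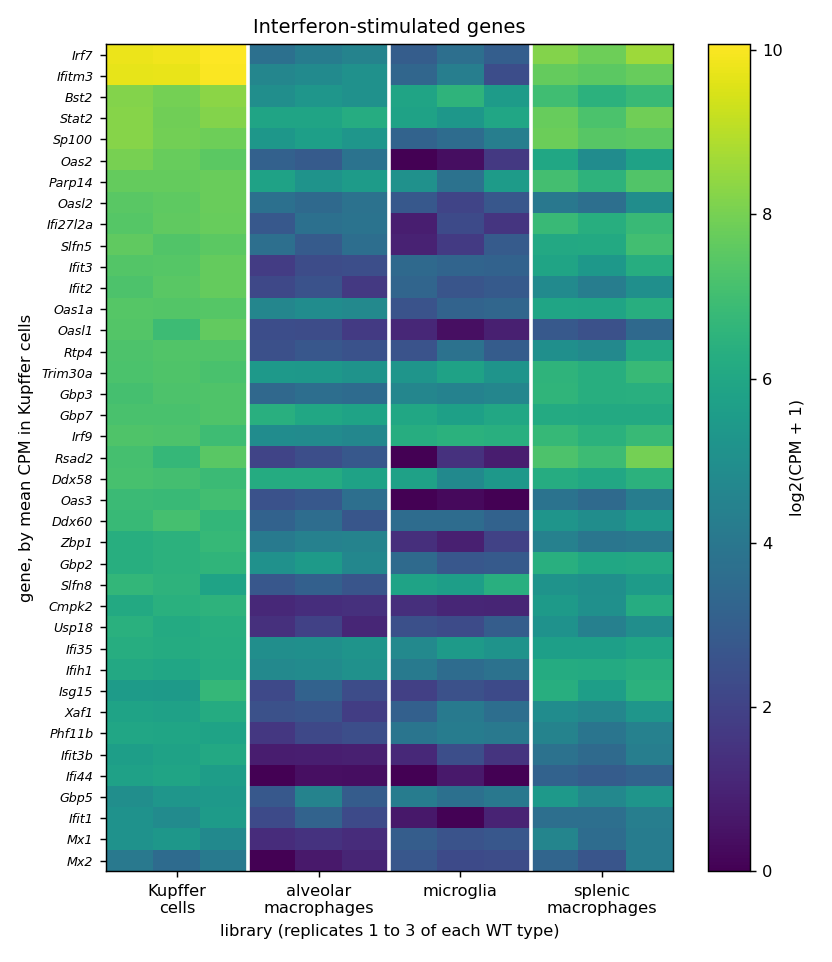
Heat map of log2(CPM + 1) for 39 of the 40 interferon-stimulated genes (rows, ordered by mean CPM in Kupffer cells) in the 12 WT libraries (columns, replicates 1 to 3 of each type). The 3 Kupffer columns are the brightest for most genes, the splenic columns come next, and the alveolar and microglial columns are dark for most genes.

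Antigen presentation through MHC class II was shared with the spleen. Of 15 genes, 11 were higher and 2 (Ctss and Cd80) lower than the mean of the types. Against splenic macrophages Cd40 alone was higher, and Cd80 and Cd86 were lower, beside 8.88% higher and 7.53% lower among all genes. The list summed to 15434 to 19046 CPM in Kupffer libraries, against 5567 to 7199 in alveolar, 5543 to 7867 in microglial and 13804 to 21330 CPM in splenic libraries. H2-Aa, a class II chain, stood at 1439 ± 201 CPM in Kupffer cells and 1287 ± 387 CPM in splenic macrophages (adjusted p = 0.95). Cd40, the receptor for T cell help, stood at 35.8 ± 3.29 CPM in Kupffer cells and 11 ± 4.96 CPM in splenic macrophages (adjusted p = 0.0148).

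Chemokine genes were higher for 14 of 27 and lower for 2, with Cxcl13, Cxcl16, Ccl24 and Pf4 above every type. Cxcl13, which draws B cells, stood at 74.2, 70.8 and 72.2 CPM in Kupffer cells, against at most 1.71 CPM in any other library. Cxcl16, a membrane-bound chemokine that also binds oxidised lipoproteins and draws Cxcr6-bearing lymphocytes, stood at 306 ± 28.4 CPM against 24.1, 94.9 and 50.2 CPM in alveolar macrophages, microglia and splenic macrophages. Ccl24, an attractant of eosinophils, stood at 205 ± 26.0 CPM against 0.901, 6.17 and 30.5 CPM. Of 39 cytokine genes 12 were higher and 4 lower. Il18 was lower than in alveolar and splenic macrophages, at 39.8 ± 8.37 CPM in Kupffer cells against 275 ± 24.6 and 256 ± 12.8 CPM, whereas its inhibitor Il18bp was above every type.

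Receptors for microbes split, with 14 of 40 higher and 10 lower. Lbp, which hands bacterial lipopolysaccharide to CD14, stood at 52.6 ± 14.1 CPM in Kupffer cells and under 2 CPM in every other library. Tlr2 was lower than in each other type at the threshold of single pairs, at 150 ± 3.37 CPM against 1764, 190 and 320 CPM in alveolar macrophages, microglia and splenic macrophages. Among 15 Fc receptor genes 8 were higher and 1 lower. Fcgr2b, the inhibitory receptor for IgG, stood at 601 ± 103 CPM in Kupffer cells, against 173, 360 and 25.2 CPM, and it is also a gene of the sinusoidal endothelial list.

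Genes of haem and iron handling, by which macrophages recycle red cells, were higher for 13 of 38 (34.2%) and lower for 7. Against splenic macrophages 4 of the 38 were higher and 15 were lower, beside 8.88% higher and 7.53% lower among all genes. Hmox1, haem oxygenase 1, stood at 1180, 1131 and 1100 CPM in Kupffer cells, against 4665, 5492 and 4487 CPM in splenic macrophages (log2 -2.31, adjusted p = 4.16e-05). It was still above alveolar macrophages at 163 ± 31.4 CPM and microglia at 358 ± 105 CPM. Slc40a1, the iron exporter ferroportin, stood at 4242 ± 730 CPM in Kupffer cells, 5554 ± 867 CPM in splenic macrophages and 16.6 and 283 CPM in alveolar macrophages and microglia. Vcam1, an adhesion molecule of red pulp macrophages, stood at 705 ± 175 CPM in Kupffer cells and 10305 ± 936 CPM in splenic macrophages.

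Genes for the uptake of dying cells were higher for 14 of 32 (43.8%) and lower for 5, and 0 were above every type. Timd4, C1qb, Stab1 and Stab2 were among the higher genes. Gas6, a bridging ligand, stood at 210 ± 66.9 CPM in Kupffer cells, against 14.5, 288 and 30.1 CPM in alveolar macrophages, microglia and splenic macrophages. Of its receptors, Axl and Mertk were lower than in splenic macrophages: Axl stood at 1895 ± 168 CPM in Kupffer cells against 4990 ± 647 CPM, and Mertk at 540 ± 25.9 CPM against 1026 ± 81.0 CPM. Relative to the mean of the types Axl was nevertheless higher, since microglia averaged 19.0 CPM. The third receptor, Tyro3, named here after its values were seen, stood at 6.65, 0.572 and 0.787 CPM in Kupffer libraries, against means of 0.0540, 0.182 and 0.0119 CPM in alveolar macrophages, microglia and splenic macrophages. It was higher than in splenic macrophages (adjusted p = 0.0192, edgeR), and its difference from the mean of the types rests on Kupffer replicate 1, with an adjusted p of 0.00289 with that library and 0.0736 without it.

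Genes lower in Kupffer cells than in every type were few. Among the 20 of the 22 with at least 20 CPM in each other type, the first 10 by the size of the step below the next type were Slco2b1, Sort1, Oaf, Dst, Gcnt1, Hvcn1, Mctp1, Dennd4a, Spire1 and Arhgap39. Slco2b1, an organic anion transporter, stood at 14.2, 4.84 and 4.39 CPM in Kupffer cells, against 290, 270 and 253 CPM in alveolar, 2096, 1383 and 2087 in microglial and 375, 509 and 516 CPM in splenic libraries (log2 -6.48 ± 0.47 against the mean of the types). Sort1 (sortilin), a sorting receptor of the Golgi, stood at 9.04, 26.1 and 21.4 CPM in Kupffer cells, against 1303 to 1612 CPM in alveolar, 173 to 347 in microglial and 335 to 390 CPM in splenic libraries. Hvcn1, the voltage-gated proton channel of phagocytes, stood at 27.8, 24.7 and 19.8 CPM in Kupffer cells and at 71.2 CPM or more in every other library. In all 3 genes the Kupffer libraries were the lowest. The remaining 2 of the 22, named after their values were seen, were Kcnh4, a potassium channel (0.0112 CPM in Kupffer cells, against 81.2, 0.938 and 15.1 CPM in alveolar macrophages, microglia and splenic macrophages), and Gpd1, glycerol-3-phosphate dehydrogenase (2.07 CPM against 20.8, 18.9 and 118 CPM).

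The other 7 were lower as well. Spire1, an actin nucleator, stood at 19.2 ± 0.882 CPM in Kupffer cells, against 90.5, 111 and 58.6 CPM in alveolar macrophages, microglia and splenic macrophages, and Gcnt1, a glycosyltransferase, at 19.5 ± 4.66 CPM against 73.3, 185 and 81.7 CPM. Dst (dystonin), a cytoskeletal linker, stood at 39.2 ± 4.35 CPM against 237, 160 and 145 CPM. Oaf, Mctp1, Dennd4a and Arhgap39 stood at 5.13, 11, 48.9 and 45.4 CPM in Kupffer cells. Among the 22 lower genes were also Sirpa, the receptor for CD47 (1122, 1362 and 1184 CPM in Kupffer cells, against 2442 to 3510 CPM in the other libraries, largest adjusted p = 0.0429), and Selplg, the P-selectin ligand (248 ± 16.6 CPM against 561, 6060 and 459 CPM in alveolar macrophages, microglia and splenic macrophages).

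The lists of cholesterol synthesis and fatty acid oxidation leaned lower, mostly against alveolar macrophages. Of 26 cholesterol synthesis genes 10 were lower and 1 higher, and 20 were lower than in alveolar macrophages. With library totals as the only scaling 5 of the 26 were lower. Of 29 fatty acid oxidation genes 13 were lower (9 with library totals) and 5 higher. Acadm, medium-chain acyl-CoA dehydrogenase, was below every type, at 44.1, 40.0 and 33.1 CPM in Kupffer cells, against 93.8 to 108 CPM in alveolar, 61 to 73.7 in microglial and 74.6 to 78.3 CPM in splenic libraries (largest adjusted p = 0.0215). Of 35 genes of oxidative phosphorylation 2 were higher and 0 lower than the mean of the types, and 0 of 36 ribosomal protein genes were called. Of the 35, 14 were higher than in microglia and 10 were lower than in alveolar macrophages.

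Lysosomal genes split by enzyme, with 8 of 35 higher and 12 lower. Ctsb, a cysteine protease, stood at 10339 ± 1042 CPM in Kupffer cells, between microglia (3856 CPM) and splenic macrophages (14899 CPM), while the aspartic protease Ctsd stood at 1733 ± 150 CPM, below alveolar macrophages (5104 CPM), microglia (7536 CPM) and splenic macrophages (2275 CPM). Immediate early genes, which dissociation of tissue can induce, were lower for 10 of 34 and higher for 2. They summed to 26092, 20572 and 40213 CPM in Kupffer libraries, against 13321, 40055 and 19056 CPM in alveolar, 75855 to 82703 in microglial and 42455 to 49979 CPM in splenic libraries. Kupffer and alveolar libraries overlap in this sum, and both lay below microglia and splenic macrophages.

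**Figure D5:**
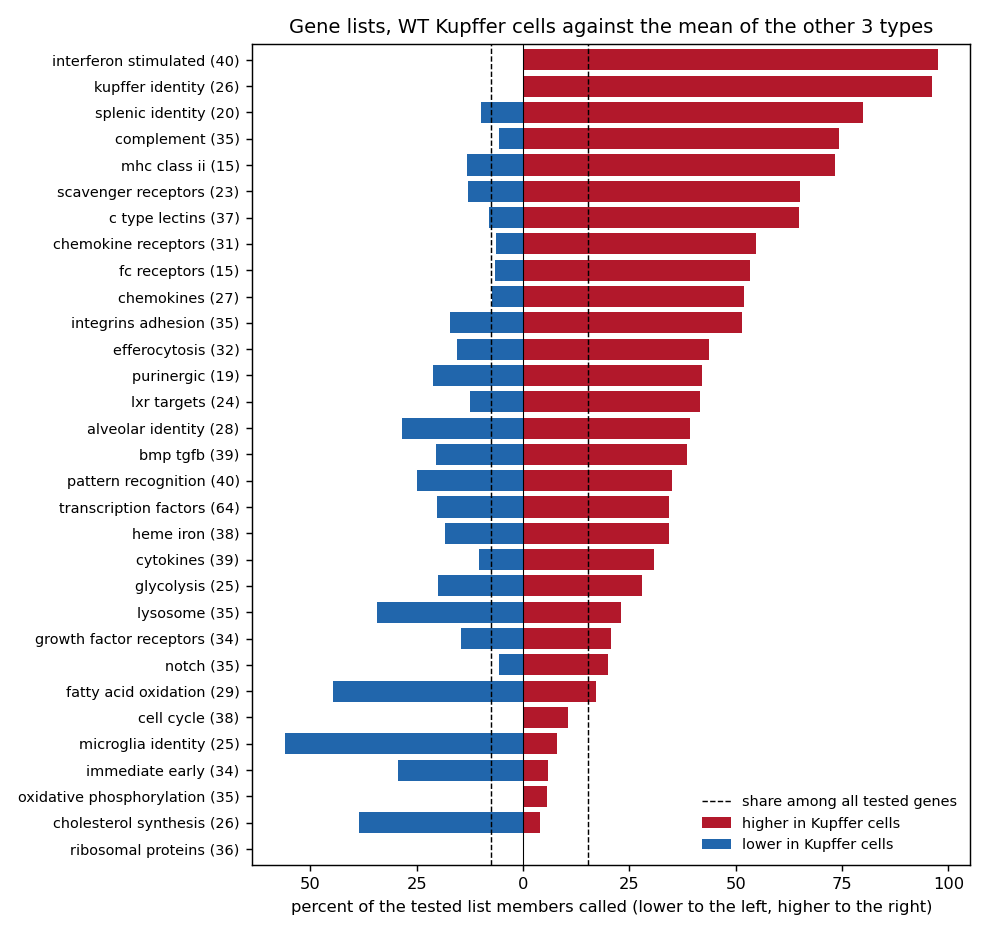
Percent of tested members called higher (red, to the right) or lower (blue, to the left) in Kupffer cells than in the mean of the other 3 types, for each identity and pathway list, with the number of tested members in brackets. Dashed lines mark the shares among all tested genes (15.2% higher, 7.58% lower); among these lists interferon-stimulated genes and Kupffer identity genes lie furthest right, and microglial identity genes furthest left.

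Identity genes of the other macrophages stood where their own type is high. Of 25 microglial identity genes 14 were lower (56.0%) and 2 higher, and Tmem119, a microglial surface protein, stood at 6.24, 6.43 and 3.54 CPM in Kupffer cells against 5578, 4768 and 4609 CPM in microglia. Of 28 alveolar identity genes 8 were lower and 11 higher than the mean of the types. Siglecf, a sialic acid receptor of alveolar macrophages, stood at 5.11 ± 1.98 CPM in Kupffer cells and 585 ± 23.9 CPM in alveolar macrophages, while Ear2, an eosinophil-type ribonuclease, was called higher than the mean with microglia at 0 counts (74.8 CPM in Kupffer cells, against 1288, 0 and 102 CPM in alveolar macrophages, microglia and splenic macrophages). The splenic identity list, in which 16 of 20 genes were higher and 2 lower, summed to 16517 to 19887 CPM in Kupffer libraries and 37359 to 42016 CPM in splenic libraries.

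Surface receptors and adhesion genes were mixed. Of 35 integrin and adhesion genes 18 were higher and 6 lower, and 4 were above every type (Cdh5, Esam, Icam2 and Nrp1). The part of endothelial cells was not tested for these 4 genes. Nrp1, a co-receptor for VEGF and semaphorins, stood at 588, 551 and 615 CPM in Kupffer cells, against 92.5 to 132 CPM in alveolar, 160 to 187 in microglial and 54.7 to 92.4 CPM in splenic libraries. Esam, a junction protein of endothelium and platelets that is also in the endothelial list, stood at 255 ± 35.6 CPM in Kupffer cells, against 4.51, 4.38 and 18.2 CPM in alveolar macrophages, microglia and splenic macrophages. Itgal, the LFA-1 alpha chain, overlapped with alveolar macrophages (699 ± 147 CPM in Kupffer cells, 702 ± 125 CPM in alveolar macrophages).

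Of 31 chemokine and migration receptors 17 were higher and 2 lower. Cx3cr1, the fractalkine receptor, stood at 37.5 ± 14.3 CPM in Kupffer cells, against 13.5, 6319 and 10.8 CPM in alveolar macrophages, microglia and splenic macrophages. Purinergic genes were higher for 8 of 19 and lower for 4, with P2ry12 at 83.3 ± 21.2 CPM in Kupffer cells and 4859 ± 505 CPM in microglia. Among 34 growth factor and cytokine receptors 7 were higher and 5 lower. Csf1r, the receptor on which macrophages depend, stood at 6635 ± 752 CPM in Kupffer cells, below microglia (14760 ± 2879 CPM), above alveolar macrophages (592 ± 140 CPM) and with no call against splenic macrophages (8806 ± 746 CPM, adjusted p = 0.0612). Glycolysis genes were higher for 7 of 25 and lower for 5, and of 38 cell cycle genes 4 were higher and 0 lower. Among all genes 15.2% were higher and 7.58% lower. Behind the few cell cycle calls, 34 of the 38 were higher than in microglia and 17 were lower than in alveolar macrophages.

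Some genes at a high level that are above every type are in no list, and 4 are named here after their values were seen. Being in no list does not tell which cells in the Kupffer libraries made them. The part of endothelial cells, whose lists summed highest in these libraries, was not tested. Ehd3, an endocytic recycling protein, stood at 2026, 1612 and 1732 CPM in Kupffer cells and at most 11 CPM in any other library. Wfdc17, a small secreted protein of activated macrophages in mice, stood at 941, 1057 and 832 CPM in Kupffer cells, against 14.5 to 24.6 CPM in alveolar, 0 to 0.671 in microglial and 10.6 to 20.4 CPM in splenic libraries. Igfbp7, a secreted growth factor binding protein, stood at 1104 ± 198 CPM against 13, 10.8 and 8.15 CPM in alveolar macrophages, microglia and splenic macrophages. Col4a1, a basement membrane collagen chain, stood at 462, 383 and 688 CPM in Kupffer cells and at most 23.4 CPM elsewhere. In Ehd3 and Col4a1 the second Kupffer library was the lowest, as it was in the sums of both endothelial lists. In Wfdc17 it was the highest, as for Clec4f, Vsig4 and Timd4, so the replicates did not rank alike. What lies behind these orders was not tested.

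The Kupffer replicates were close. Over the 7293 genes with at least 20 CPM in Kupffer cells the median coefficient of variation was 12.2%, against 12.1% in alveolar macrophages, 17.1% in microglia and 12.5% in splenic macrophages over the genes at that level in each. It was 15.1% over the 238 genes above every type at that level. Against splenic macrophages alone, the nearest of the 3 types by number of called genes, Clec4f, Vsig4, Oit3, Clec4g, Gata4, Flt4, Wnt2 and Gpr182 were higher in Kupffer cells, while Cd163, C6, Fcna, Nr1h3 and H2-Aa were not called in either direction.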

How the data were processed

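Bulk RNA-seq of sorted mouse macrophages was used for the 12 WT libraries of 4 cell types, 3 libraries each. DRAGEN, STAR 2.7.9a, Subread, featureCounts 2.0.3, Salmon 1.5.2 and the mm10 build are listed per the submitters' processing notes. Their roles, the strand setting and the treatment of multi-mapping reads are not given in the sources used here, so near-identical copies (C4b, the Ifit3 and Oas1 families) and antisense or overlapping partners cannot be told apart. The authors deposited whole, unnormalized counts per gene, and all tests use them. The authors also deposited TPM values, used for levels between genes in Kupffer cells. The deposited TPM column of WT splenic replicate 3 was recorded as a signal, since repeated gene rows lift its sum above that of a TPM column. With the first row of each gene kept it is on the TPM scale, and no splenic TPM value is printed.

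The first row of each gene was kept: 287 of 55774 rows were identical repeats, which left 55487 genes, 99.53% with mm10 coordinates from GENCODE. CPM was computed from the library totals. The test was edgeR 4.0.16 (R 4.3.3): TMM scaling, filterByExpr with a minimum count of 10, a quasi-likelihood fit of the 4 groups, two-sided contrasts and adjustment over all 21679 genes. The contrasts were Kupffer cells minus the mean of the other types on the log scale, and minus each type, and the contrasts share the Kupffer libraries. A difference from every type took the largest of 3 p-values per gene, adjusted over all genes, and "largest adjusted p" is that value. Standard errors are those of the fitted contrast. Where a type had 0 counts, list medians with bounds use a floor of 3 counts over the group (0.0165 CPM in Kupffer cells, 0.0173 in alveolar macrophages, 0.0191 in microglia and 0.018 in splenic macrophages), which covers counting error only. Scripts were tested on simulated data.

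The members, the 46 gene lists (1077 of 1079 entries were in the table) and the motifs were chosen with earlier results of these data known. Named genes were the 3 markers, the 15 genes with the largest step above the next type and the 10 with the largest step below it (at least 20 CPM, no overlap), up to 4 called members per list and direction, and further list members for their role. Alternatives were DESeq2 1.42.0, its size factors in edgeR, library totals, limma 3.58.1 with voom, no filter, a minimum count of 50, an adjusted p under 0.01, a log2 difference of at least 1, a replicate block and leaving out each library. Replicates of a type differed by more than counting noise (chi-square over its degrees of freedom of at least 43.0). Some genes of the lists are counted but not reported here by name.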

Additional observations from a re-analysis of the deposited data

How the results depend on the processing

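The number of genes higher than the mean of the other types, 3303, stayed within 1.5 times of that value in every alternative run (2624 to 3568 when single libraries were left out). The 1643 genes lower than the mean became 1065 with library totals only, 833 at an adjusted p under 0.01, 729 at a log2 difference of at least 1 and 1009 to 1828 without single libraries. The 277 genes above every type became 588 with DESeq2, 843 with limma and voom, 424 without a filter, 123 at an adjusted p under 0.01 and 138 to 304 without single libraries. The 22 genes below every type became 112 with DESeq2, 11 at an adjusted p under 0.01 and 7 to 30 without single libraries. They also numbered 14 without alveolar replicate 1, microglia replicate 1 or splenic replicate 3, and 13 without splenic replicate 2. At an adjusted p under 0.01, 3682 genes differed from alveolar macrophages, 4349 from microglia and 1859 from splenic macrophages, against 6075, 7025 and 3558 in the fit reported. The cause of these changes was not tested. A stricter threshold calls fewer genes by construction, but leaving out a library did not always lower the counts. Without microglia replicate 2, 3568 genes were higher and 1828 lower than the mean, and 304 were above and 30 below every type.

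Among the genes named, the sign turned for Zeb2 with library totals (log2 0.018) and for Clec5a when single libraries were left out (-2.13 to 0.114). With the replicate number as a block, 3092 genes were higher and 1507 lower than the mean, 189 were above and 16 below every type, and 5636, 6482 and 3125 differed from alveolar macrophages, microglia and splenic macrophages. Libraries with the same number showed no clear shared deviation: their correlations ran from -0.0224 to 0.0772, against -0.0637 to 0.0552 for different numbers. Whether the same number means the same mouse is not given. These correlations cannot settle it, since a shared mouse need not leave a shared deviation. With 3 libraries a type, genes under about 1 CPM rest on few counts.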
